A study of Mus musculus with 6 samples.

Results

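The genes described here encode the machinery that copies DNA in S phase: the proteins that mark and license replication origins, the Mcm2 to Mcm7 helicase and its activators, the polymerases with their sliding clamp, the enzymes that make deoxynucleotides, histone and chromatin factors of the fork, and the E2F factors and E-type cyclins that start S phase. The set holds 33 genes named by symbol. All 33 had a probe set with a single gene symbol in the platform annotation, out of 19938 genes with such a probe set. The brightest probe set by mean over the 6 arrays stood for each gene. The genes were compared in URE cells, a mouse leukaemia line, between a control hairpin against luciferase (shControl, 3 arrays) and a hairpin against Hlx (shHLX, 3 arrays). Hlx encodes a homeobox transcription factor, and the study asked what it does in blood cell differentiation and tumour formation.

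Both groups were the same cell line carrying the same lentiviral vector, pSIH1-H1-copGFP, and differed by label in the hairpin alone. GFP-positive cells were sorted, with several days of culture that the labels place before the sort in one text and after it in another. RNA was taken from 1X10E5 cells and amplified with a whole-transcriptome kit before labelling. URE cells descend from mice that lack the upstream regulatory element of Spi1, the gene of PU.1, so cells of both groups share that deletion. This is background knowledge and is not in the labels. The labels do not tell apart hairpins against Hlx, so off-target effects of a hairpin cannot be told apart from effects of Hlx. Whether the 3 replicates of a group were separate transductions is not given either, so p-values reflect only how far these samples spread, and that spread may be technical.

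Replication is prepared in G1, when the origin recognition complex, Cdc6 and Cdt1 load the ring of Mcm2 to Mcm7 onto DNA. At the start of S phase Cdc45 and the GINS proteins join the ring and turn it into an active helicase, and DNA polymerase alpha with its primase lays down the first primers. E2F factors, released from the retinoblastoma protein when cyclin-dependent kinases phosphorylate it, switch on most of these genes together, and dividing leukaemia cells express them.

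The 33 genes differed little between the groups. Expressed as the ratio of shHLX to shControl signal, they ranged from 84.2% for Tk1 to 114% for Ccne2. All 33 intervals (95% confidence, limma) lay between 77.3% and 124% of control. Mcm6 and Tk1 fell, and no gene of the set rose past the test (limma, adjusted p under 0.05 over all 19938 genes). Both calls depended on the processing: each held in 6 of 15 alternative fits, and in 1 of the fits that left out a single array. These 2 genes are 6.06% of the set, beside 2.43% of all genes that were lower by the same test and 3.75% that were higher. The other 31 did not pass, with adjusted p from 0.0694 to 0.955. At an unadjusted limma p under 0.05, 9 of the 33 genes (27.3%) were lower and 2 (6.06%) higher, beside 8.6% and 10.8% of all genes.

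The median difference over the set was -0.03 on the log2 scale, and over all genes -0.01. The difference was below 0 for 24 of the 33 genes (72.7%) and for 54.6% of all genes. For 10 genes (30.3%) all shHLX values lay below all shControl values, which was so for 11.4% of all genes. For 4 genes (12.1%) they all lay above, against 14.7% of all genes. The groups overlapped for the remaining 19. The median SD within groups was 0.0506 log2 units, beside 0.0728 for all genes. The set was also brighter, with a mean control signal of 10.01 beside 7.76 for all genes. The 69 further replication genes described below, with a mean control signal of 9.75, had a median SD of 0.0529. The shares of all genes given here were not matched for signal. The 33 genes were also chosen with earlier results of these data known, so their shares describe the set and are not independent support. In a bulk RNA sample, fewer cells in S phase and less of the mRNA per cell cannot be told apart.

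**Figure D1:**
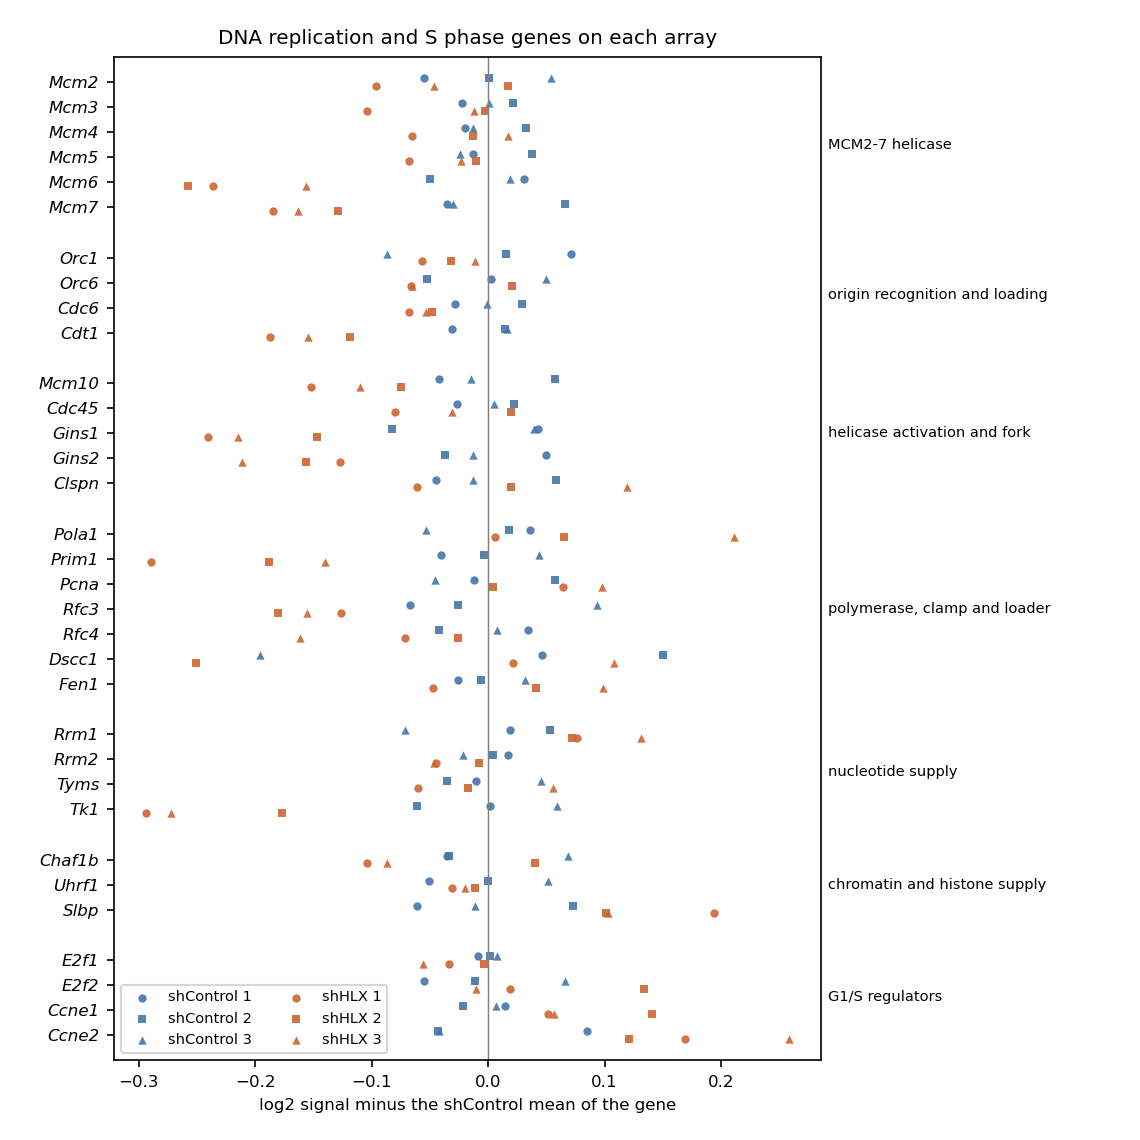
Log2 signal of each of the 33 genes on each array, minus the mean of the gene over the 3 shControl arrays, with genes grouped by role. Blue marks are shControl and orange marks shHLX, and the marker shape gives the replicate number. All 3 orange marks lie left of the blue ones for 10 genes, Mcm6 and Tk1 among them, and right of them for 4.

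**Figure D2:**
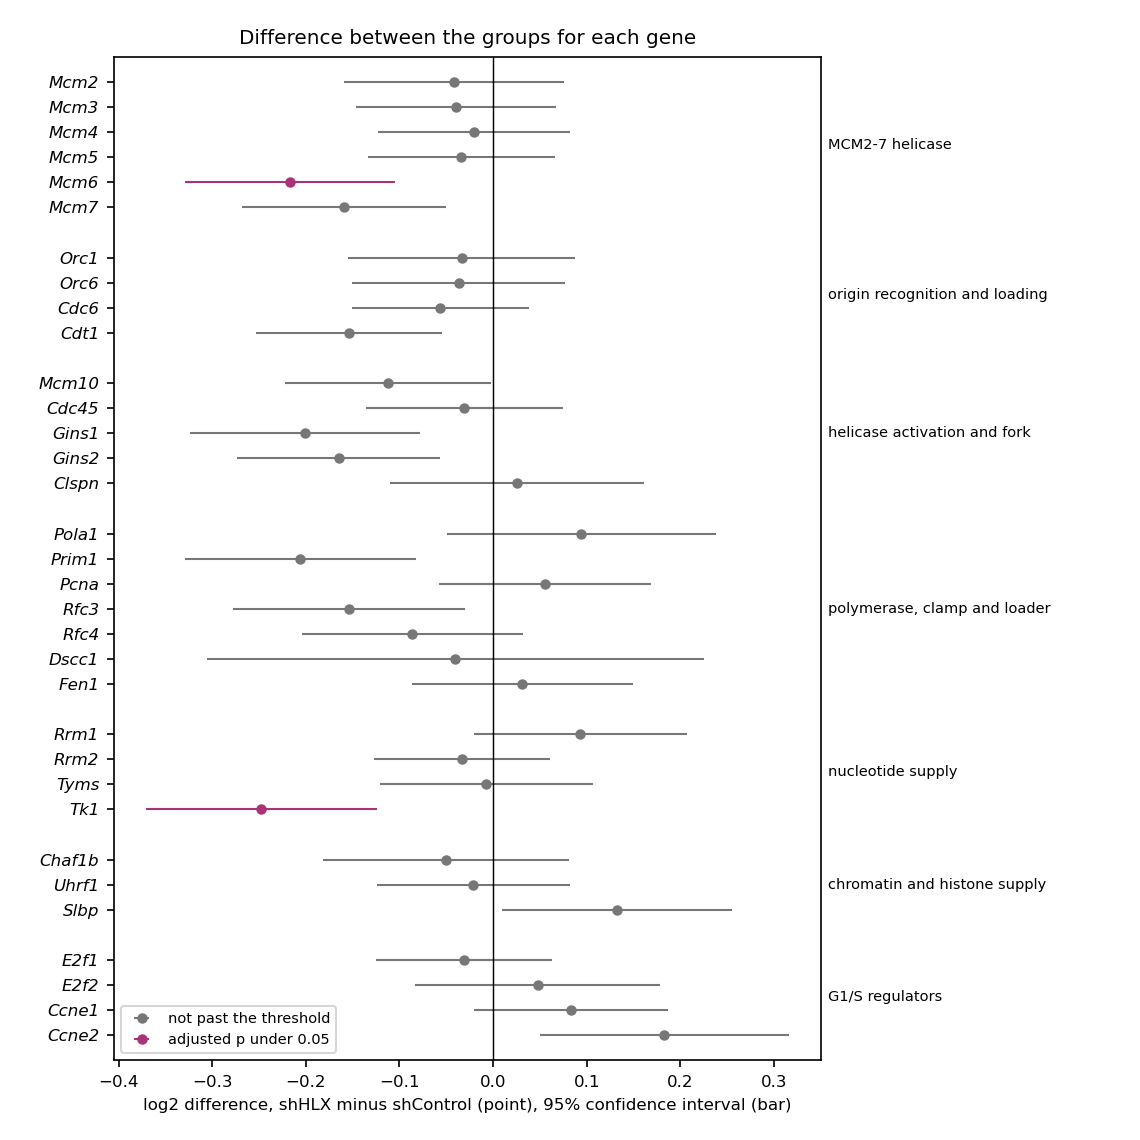
Difference of the mean log2 signal, shHLX minus shControl, for each of the 33 genes, with the 95% confidence interval of limma (n = 3 arrays a group). Mcm6 and Tk1, in purple, are the genes past an adjusted p of 0.05, and every interval lies between -0.37 and 0.32.

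Promoter sequence was examined because many of the genes are textbook E2F targets. RefSeq promoters (GRCm38.p6, 250 bases before to 50 after a start site) were found for 28 of the 33 genes, the others being Mcm4, Gins1, Gins2, Dscc1 and Ccne2. The E2F motif was searched as the words TTTCCCGC, TTTCGCGC, TTTGCCGC and TTTGGCGC on both strands. At least 1 word occurred in 12 of the 28 genes (42.9%), beside 2.6% of the 27025 mouse genes with a promoter in the same table. It occurred in 12 of the 32 promoters of these genes (37.5%) and in 2.26% of all 32851 promoters. CCAAT, on either strand, occurred in 19 of the 28 genes (67.9%) and in 41.1% of all genes, while TTTGAA, a core word of cell cycle homology regions of mitotic genes, occurred in 4 (14.3%) and in 20.2%. The shares of all genes and promoters were not matched for base composition. A word is a description of the letters in the window and does not show that a factor binds there. Likewise, a promoter without one of these exact words may hold an E2F site of other letters or outside the window. E2f1, Pcna, Rrm2, Tyms and Tk1 were among the 16 genes without one.

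The E2F words of these 12 genes are given in capitals with 8 bases on each side where the promoter reaches so far, in the 5′ to 3′ direction of the gene, because they are what most of the helicase and loading genes share. Genes with 2 separate stretches have 2 lines.
Mcm3: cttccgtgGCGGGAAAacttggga
Mcm3: tgggaagtTTTGGCGCcaag
Mcm5: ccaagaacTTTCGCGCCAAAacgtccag
Mcm6: cgtatgctTTTGGCGCGAAAagtgcgtg
Mcm6: tggacgggTTTGGCGCgaagtagc
Mcm7: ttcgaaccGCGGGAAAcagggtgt
Mcm7: tgacgacgTTTCGCGCcaatttcg
Orc1: ggttagtgGCGCGAAAagttttct
Cdc6: ggtggagaGCGGGAAAtcgcctgg
Cdt1: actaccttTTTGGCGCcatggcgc
Clspn: gcgtctggGCGCGAAAgctcgaac
Pola1: atcacaggGCGCCAAAtgcactcc
Rfc3: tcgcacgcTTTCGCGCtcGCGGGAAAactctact
Uhrf1: gagtcgggTTTCGCGCgcccaggc
E2f2: gcatatagTTTGGCGCtaa

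Mcm5 and Mcm6 each held a run of 12 bases in which a word on one strand shared 4 bases with a word on the other, and these runs were reverse complements of each other. In Mcm6 that run began at position -110 from the start site and a further word at -47. In Mcm7 the word at 17 shared 1 base with a CCAAT word. The 12 genes with an E2F word had a median difference of -0.04 between the groups and the 16 without one -0.03, each with 1 called gene.

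**Figure D3:**
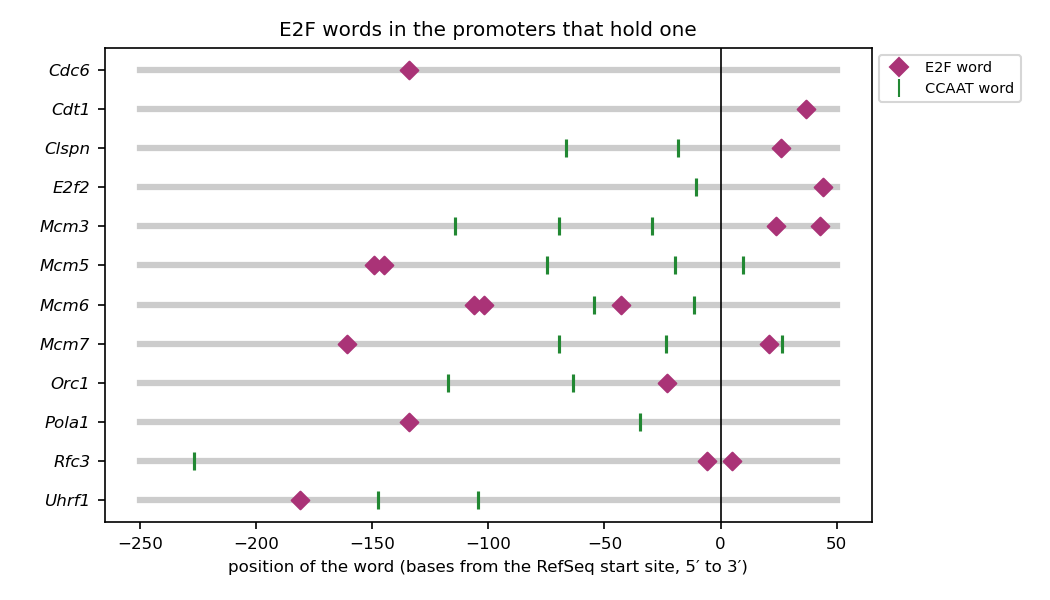
Positions of E2F words (purple diamonds) and CCAAT words (green bars) in the 12 promoters that hold an E2F word, in bases from the RefSeq start site. Grey lines mark the window from 250 bases before to 50 after the start. E2F words lie on both sides of the start site, and the overlapping pairs of Mcm5 and Mcm6 lie upstream.

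The promoters of the called genes are given in full. The Mcm6 promoter (chr1:128359656-128359955, minus strand) held 3 E2F words, in capitals, and the Tk1 promoter (chr11:117825965-117826264, minus strand) held none.
Mcm6: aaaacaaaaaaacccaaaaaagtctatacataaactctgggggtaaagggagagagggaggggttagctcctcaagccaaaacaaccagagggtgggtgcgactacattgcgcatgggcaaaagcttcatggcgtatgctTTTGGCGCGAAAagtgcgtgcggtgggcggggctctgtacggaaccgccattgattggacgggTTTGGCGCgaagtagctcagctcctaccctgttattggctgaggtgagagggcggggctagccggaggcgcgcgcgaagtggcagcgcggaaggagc
Tk1: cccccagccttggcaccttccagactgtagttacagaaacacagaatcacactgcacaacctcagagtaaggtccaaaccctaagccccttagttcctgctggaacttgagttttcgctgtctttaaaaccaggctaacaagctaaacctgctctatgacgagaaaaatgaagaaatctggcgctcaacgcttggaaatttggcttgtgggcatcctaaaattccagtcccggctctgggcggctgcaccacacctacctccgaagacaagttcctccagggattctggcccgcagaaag

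The arrays do not show the labelled knockdown at the RNA level. Hlx was at 10.21, 10.12 and 10.20 log2 units on the shControl arrays and at 10.08, 10.06 and 10.17 on the arrays labelled shHLX, and the groups overlapped (exact two-sided permutation p = 0.2, with 0.1 the smallest possible, and limma adjusted p = 0.479). Array medians over all genes lay between 7.33 and 7.44. Within-group deviations of shControl 1 and shHLX 3 went together (r = 0.34 across genes, which are not independent), and results are therefore also given without both. Of the myeloid genes Mpo, Elane, Prtn3, Ctsg, Kit, Csf2ra, Itgam, Fcgr3, Cebpa, Spi1, Cd34 and Ptprc, the first 10 had mean signals between 7.99 and 14 in the controls, while Cd34 (6.05) and Ptprc (6.01) were dim. Mpo fell to 36.3%, Kit to 60.4% and Csf2ra to 74.5% of control and Itgam rose to 168% (limma, adjusted p from 6.37e-05 to 0.00151), and their part in the replication genes was not tested. None of the 16 measured markers of T cells, B cells, erythroid cells and stroma was called, with values from 4.85 to 8.03. Detection calls were not used here, so it is not known which dim signals are above background.

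Among the 6 subunits of the replicative helicase, Mcm6 was the called gene. Mcm6 read 11.56, 11.48 and 11.54 on the shControl arrays and 11.29, 11.27 and 11.37 on the shHLX arrays. The groups did not overlap, and the lowest control array stood above the highest shHLX array. The mean went from 11.53 ± 0.0433 to 11.31 ± 0.0537 (SD, n = 3), a level of 86.0% of control (95% confidence interval 79.6% to 93.0%, limma adjusted p = 0.0402). Leaving out any array other than shHLX 3 ended the call (adjusted p up to 0.159), as did leaving out shControl 1 and shHLX 3 together (0.0914). It was also lost when arrays were centred on their medians (0.139), without variance moderation (0.0843) and with the replicate number as a block (0.09).

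Mcm7, which sits in the same ring, read 11.76, 11.87 and 11.77 on the shControl arrays and 11.61, 11.67 and 11.64 on the shHLX arrays. These groups did not overlap either, but the difference of -0.16 (SE 0.05) did not pass (limma adjusted p = 0.107). Mcm2, Mcm3, Mcm4 and Mcm5 had overlapping groups and differences between -0.04 and -0.02, with adjusted p from 0.693 to 0.846. Their intervals reached from 89.5% to 106% of control.

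Because the 6 subunits act as one ring, Mcm6 was also set against Mcm2 to Mcm5 within each array, which removes any shift common to an array. Relative to the control mean, the log2 difference between Mcm6 and the mean of those 4 genes was 0.06, -0.07 and 0.01 on the shControl arrays. On the shHLX arrays it was -0.15, -0.26 and -0.14, below every control array. The same difference for Mcm7 was -0.01, 0.04 and -0.03 on the shControl arrays and -0.10, -0.13 and -0.15 on the shHLX arrays. These contrasts were chosen after the values were seen and carry no test.

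Of the 4 genes of origin recognition and loading, none was called. Cdt1, which brings the helicase to origins and is held in check by geminin, read 11.01, 11.05 and 11.06 in the controls and 10.85, 10.92 and 10.88 on the shHLX arrays. The groups did not overlap, and the level was 89.9% of control (83.9% to 96.3%, limma adjusted p = 0.0888). Cdc6, the ATPase that loads the helicase with the origin recognition complex, read 8.72, 8.78 and 8.75 against 8.68, 8.70 and 8.69. These groups also stood apart, narrowly, with a difference of -0.06 (limma adjusted p = 0.5). Orc1 and Orc6, subunits of the origin recognition complex, had overlapping groups and differences of -0.03 and -0.04.

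The genes that turn the loaded ring into a moving fork had the lowest median difference of the 7 roles, -0.11 over 5 genes, and none was called. Gins1, a subunit of the GINS complex, read 8.63, 8.50 and 8.63 in the controls and 8.35, 8.44 and 8.37 on the shHLX arrays. Its level was 87.0% of control (79.9% to 94.7%, limma adjusted p = 0.0748), and no shHLX array reached a control array. Gins2, of the same complex, read 9.61, 9.52 and 9.55 against 9.43, 9.40 and 9.35, a level of 89.2% (82.8% to 96.1%, limma adjusted p = 0.0927). Gins3 and Gins4, also of that complex, are counted among the further replication genes described below. They were at 98.1% and 97.5% of control with overlapping groups (limma adjusted p = 0.839 and 0.716). Mcm10, which helps the active helicase to leave the origin, was at 92.5% of control without overlap of the groups (adjusted p = 0.247). Cdc45, the third part of the active helicase, and Clspn, which encodes the checkpoint mediator claspin, had overlapping groups and differences of -0.03 and 0.03, the sign of Clspn turning under some settings.

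Among the 7 genes of priming, the clamp and its loaders, differences ran from -0.21 to 0.09 and none was called. Prim1, the catalytic subunit of primase, read 10.04, 10.08 and 10.13 in the controls and 9.79, 9.89 and 9.94 on the shHLX arrays. The groups did not overlap, and the level was 86.7% of control (79.6% to 94.4%, limma adjusted p = 0.0694). Prim2, the other primase gene, is counted among the further replication genes. It was at 102% of control with overlapping groups (limma adjusted p = 0.811). Pola1, the polymerase subunit that extends the primers of Prim1, was at 107% (96.6% to 118%), with shHLX 3 the highest array at 9.50. Rfc3, a subunit of the loader that opens the clamp, read 9.18, 9.22 and 9.34 against 9.12, 9.06 and 9.09, so the groups stood apart, with a level of 89.9% (82.5% to 97.9%, limma adjusted p = 0.161).

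Rfc4, of the same loader, had overlapping groups at 94.2% of control. Pcna, the sliding clamp itself, was at 104% (96.1% to 112%), with groups that overlapped on both of its probe sets (differences of 0.06 and 0.05). Fen1, the nuclease that trims Okazaki fragments, was at 102%. Dscc1, part of an alternative clamp loader used in sister chromatid cohesion, was the dimmest gene of the set and the least precise. It spanned 6.37 to 6.77 with full overlap, and its interval ran from 80.9% to 117%.

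In nucleotide supply, Tk1 fell while the others did not pass. Tk1 encodes the cytosolic thymidine kinase of the salvage pathway, whose mRNA and protein peak in S phase. It read 10.19, 10.12 and 10.24 in the controls and 9.89, 10.01 and 9.91 on the shHLX arrays, with no overlap. The level was 84.2% of control (77.3% to 91.7%, limma adjusted p = 0.0343). Its second probe set read 10.12, 10.12 and 10.15 against 9.89, 10.00 and 9.96, also without overlap, with a difference of -0.18 (adjusted p = 0.0705 over all probe sets with 1 symbol). Leaving out any array other than shHLX 2 ended the call (adjusted p up to 0.144), as did leaving out shControl 1 and shHLX 3 together (0.16), centring on array medians (0.055), dropping variance moderation (0.1) and the replicate block (0.103).

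Tyms, which makes thymidylate by the other route, was at 99.5% of control (92% to 108%). The difference between Tk1 and Tyms within an array, relative to its control mean, was 0.01, -0.03 and 0.01 on the shControl arrays and -0.23, -0.16 and -0.33 on the shHLX arrays, again a contrast chosen afterwards and not tested. Rrm1, the large subunit of ribonucleotide reductase, read 11.82, 11.86 and 11.73 in the controls and 11.88, 11.88 and 11.94 on the shHLX arrays. All 3 shHLX values were higher, at 107% of control (98.6% to 115%, limma adjusted p = 0.356). Rrm2, its small and S phase restricted subunit, was at 97.7% with overlapping groups.

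Of the 3 chromatin and histone supply genes none was called. Slbp, whose protein binds the stem-loop of histone mRNAs, read 10.11, 10.24 and 10.16 in the controls and 10.36, 10.27 and 10.27 on the shHLX arrays. The groups did not overlap and the level was 110% (101% to 119%, limma adjusted p = 0.223). Its second probe set differed by 0.05, and those groups overlapped. Chaf1b, a subunit of the chromatin assembly factor that follows the fork, read 9.82, 9.83 and 9.93 against 9.75, 9.90 and 9.77, which overlapped at 96.6% of control. Uhrf1, which guides maintenance methylation of DNA, was at 98.6%.

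The median difference of the 4 regulators of S phase entry was 0.07, above 0 where that of the helicase genes was below it (-0.04), and none of the 4 was called. Ccne2, one of the E-type cyclins that activate Cdk2, read 9.0, 8.87 and 8.87 in the controls and 9.09, 9.04 and 9.17 on the shHLX arrays. All 3 shHLX arrays were higher, at 114% of control (104% to 124%, limma adjusted p = 0.125). Ccne1 read 9.98, 9.94 and 9.97 against 10.02, 10.11 and 10.02, also without overlap, at 106% (98.6% to 114%, limma adjusted p = 0.368). Within an array, the difference between Ccne2 and Ccne1, relative to its control mean, was 0.07, -0.02 and -0.05 on the shControl arrays. On the shHLX arrays it was 0.12, -0.02 and 0.20, so the groups overlapped. That contrast, too, was chosen afterwards and not tested. The activating factors E2f1 (97.9%) and E2f2 (103%) had overlapping groups.

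**Figure D4:**
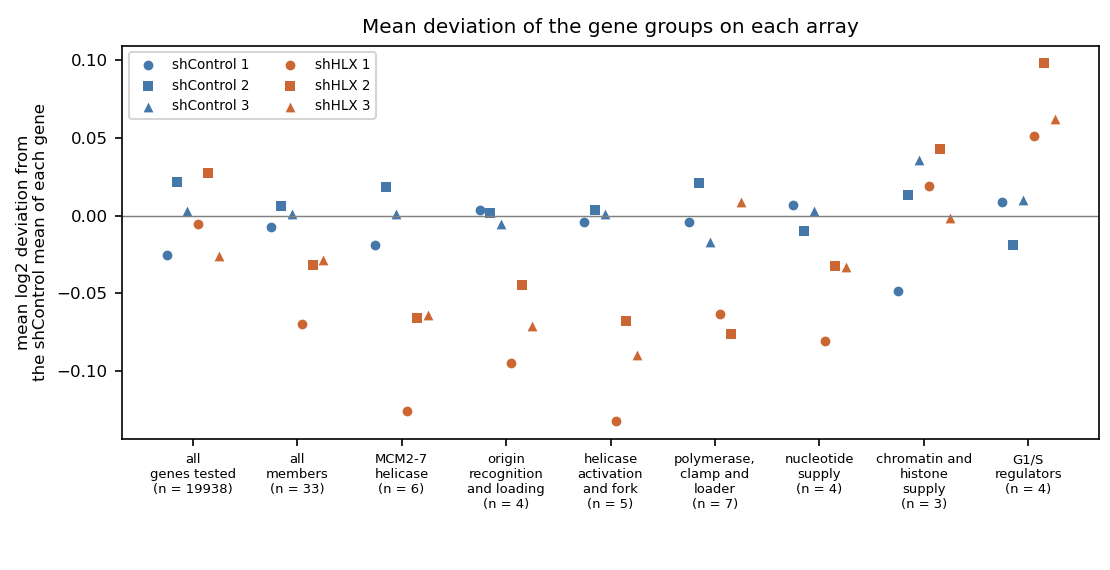
Mean log2 deviation from the shControl mean of each gene, averaged over all genes tested, over the 33 genes and over each role, for each of the 6 arrays. Blue marks are shControl, orange marks shHLX, and marker shapes give the replicate. For the helicase, origin, fork and nucleotide supply roles the 3 orange marks lie below the blue ones, lowest for shHLX 1, and for the G1/S regulators they lie above. A mean can rest on few genes: in nucleotide supply Tk1 differed by -0.25 and Rrm1 by 0.09.

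The shHLX arrays were not alike in these genes, nor in all genes. Averaged over the 33 genes, the deviation from the control mean was -0.07 on shHLX 1, -0.03 on shHLX 2 and -0.03 on shHLX 3. Over all genes it was -0.01, 0.03 and -0.03 on the same arrays, so the 33 genes lay below all genes on shHLX 1 and shHLX 2 and close to them on shHLX 3. The array shHLX 1 was the lowest of its group for 21 of the 33 genes (63.6%) and for 35.7% of all genes. For the helicase, origin, fork and nucleotide supply roles the mean on shHLX 1 was -0.13, -0.09, -0.13 and -0.08. The medians there were -0.10, -0.07, -0.13 and -0.05. Some medians lay near 0 on the other arrays, such as -0.012 for the helicase on shHLX 2 and 0.004 for nucleotide supply on shHLX 3. The median difference of the set was -0.02 without shHLX 1, -0.05 without shHLX 2 and -0.04 without shHLX 3.

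A further 69 measured genes of replication, listed from pathway knowledge, had a median difference of -0.01. Pold2, a subunit of DNA polymerase delta, was the called one (1.45%, beside 2.43% of all genes lower). It read 11.46, 11.44 and 11.51 in the controls and 11.26, 11.32 and 11.26 on the shHLX arrays, a fall to 87.5% of control (81.5% to 94.0%, limma adjusted p = 0.0465). Without any one of the 6 arrays Pold2 did not pass (adjusted p up to 0.191), nor did it with median centring (0.119), without variance moderation (0.0603), with the replicate block (0.138) or without shControl 1 and shHLX 3 together (0.183). For 14 of the 69 genes (20.3%) the groups stood apart with shHLX lower, and for 8 (11.6%) with shHLX higher, beside 11.4% and 14.7% of all genes. The difference was below 0 for 38 of the 69 (55.1%), close to the 54.6% of all genes. At an unadjusted limma p under 0.05, 7 (10.1%) were lower and 4 (5.8%) higher, beside 8.6% and 10.8% of all genes.

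Of 11 measured genes of the other E2F factors, their partners and the pocket proteins, E2f4 and Rb1 rose (18.2%, beside 3.75% of all genes higher) and 9 were not called. E2f4, the E2F that mostly represses its targets in resting cells together with pocket proteins, read 10.64, 10.73 and 10.71 in the controls and 11.01, 11.06 and 10.98 on the shHLX arrays. It rose 1.25-fold (95% confidence interval 1.16 to 1.35, limma adjusted p = 0.00554) and kept its call in all 15 alternatives. Rb1, the retinoblastoma gene, read 10.65, 10.59 and 10.64 against 10.84, 10.77 and 10.91 and rose 1.16-fold (adjusted p = 0.0497), close to the threshold, and passed in no fit with 1 array fewer (up to 0.153), nor with a second quantile normalization (0.0704), median centring (0.0856), no variance moderation (0.106), the replicate block (0.0936) or both arrays left out (0.163). The pocket protein genes Rbl1 and Rbl2 differed by 0.02 and -0.01, and their groups overlapped.

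Replication-dependent histone genes, whose mRNAs exist almost only in S phase, had a median difference of -0.05 over 22 measured genes of 50 on the list. The rest had only probe sets shared with other genes, or none in the annotation, and are not described by these values. Some of the 22 measured genes were dim, such as H2ac8, H3c7 and H4c8, with control means of 5.33, 5.71 and 6.76. Whether such signals are above background is not known, and they enter the median and the shares. H4c3 fell, from 9.40, 9.33 and 9.31 to 9.15, 9.12 and 9.10, or to 85.5% of control (79.4% to 92%, limma adjusted p = 0.0268), and the other 21 did not pass (4.55% called lower, beside 2.43% of all genes). H4c3 passed in no fit with 1 array fewer (adjusted p up to 0.0868), nor with median centring (0.0806), no variance moderation (0.0531), the replicate block (0.0704) or both arrays left out (0.15). The groups stood apart with shHLX lower for 6 of the 22 (27.3%) and with shHLX higher for 1 (4.55%), beside 11.4% and 14.7% of all genes. Histone genes are near-identical copies, so a probe set can take signal from several of them.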

How the data were processed

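The deposited values are log2 signals per probe set, 1 column per array, made by the authors with RMA and Affymetrix Power Tools 1.178, per the submitters' processing notes. RMA subtracts background, brings all arrays to one distribution and combines the probes of a probe set. The build behind the probe sets was not given in the sources used here. Of 35556 probe sets, 21789 had 1 gene symbol, 1621 several and 12146 were not listed. The annotation is GEO's, and its symbols were updated through Entrez identifiers (0 changed). A gene took its brightest probe set by mean, which gave 19938 genes with no filter on dim signal.

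Groups were compared with limma 3.58.1 (lmFit, eBayes, two-sided, no covariates) in R 4.3.3, with Benjamini-Hochberg adjustment over all genes. The code was tested on simulated data. Alternatives were a second quantile normalization, median centring, a filter at the 25th percentile of signal, averaging a gene's probe sets, a variance trend, no variance moderation, array weights, the replicate block, each array left out, and, chosen after seeing the data, shControl 1 and shHLX 3 left out together. Genes with values of every array are those called and the 2 of smallest p in each role, and the called genes of each further list. The 33 genes and the lists were chosen with earlier results of these data known. The number of arrays limits the precision. Plots used Python 3.11.15 with matplotlib 3.10.9, and the exact test scipy 1.17.1.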

Additional observations from a re-analysis of the deposited data

How the results depend on the processing

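Of 33 genes, 2 were lower in the reported fit. The count was 7 after a second quantile normalization, 5 above the 25th percentile of signal, 7 with a variance trend (and 1 higher, Ccne2), 5 with array weights, and 0 after median centring, without variance moderation, with the replicate block, or without shControl 1 and shHLX 3 together. Leaving out 1 array gave 0 to 1, the 1 being Tk1 without shHLX 2 and Mcm6 without shHLX 3. Cdt1, Gins1 and Prim1 were in each of the larger counts. The median difference (-0.0341) was -0.0149 with centring, -0.0564 with the quantile normalization and between these in the other alternatives. All genes called (1233) came to 1418 with the quantile normalization, 1527 with the filter, 2261 with the trend, 1683 with weights, 1171 with centring, 838 without moderation, 800 with the block, 741 without both arrays and 698 to 901 with 1 array left out. The further replication genes (1 called) gave 2, 3, 7, 2 and 2 with the quantile normalization, the filter, the trend, no moderation and weights, and 0 with centring, the block, both arrays out or any 1 array out (0 to 0). The histone genes (1) gave 6 with the trend and 0 under centring, no moderation, the block and every leaving out. The E2F and pocket genes (2) gave 1, E2f4, with the quantile normalization, centring, no moderation, the block and every leaving out (1 to 1). Deviations of same-numbered arrays had correlations of -0.17, 0.13 and -0.15, with no common direction. Deviations from the mean of 3 arrays depend on each other, so these values cannot exclude a batch shared by replicate number.

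Signs turned only for genes near 0, none of them called. These were Dscc1 (0.00202) and Fen1 (-0.000754) with the quantile normalization, Tyms (0.0122) with centring, Clspn (-0.00306), Dscc1 (0.0441) and Fen1 (-0.0108) with weights, and Clspn (-0.0434) and Fen1 (-0.0157) without both arrays. With 1 array left out the ranges were -0.077 to 0.0022 for Orc1, -0.139 to 0.0649 for Dscc1, -0.0384 to 0.0194 for Tyms, -0.0464 to 0.00452 for Uhrf1, -0.0393 to 0.00199 for Mcm4, -0.0209 to 0.0694 for Clspn and -0.00297 to 0.0701 for Fen1. The causes were not tested.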
